A study of Homo sapiens with 10 samples.

Results

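Among the 57736 genes counted in IMR90 cells, the 4 genes B3GALT2, OXTR, KCNK6 and GMNC are described here across all 5 groups of the study. They were selected on these data, as genes outside the inflammatory programme whose RNA was high in METTL3 knockout cells or low in METTL3 knock-in cells set against the knockout. The values behind that selection are given below as a description with no test. All 4 genes passed the filter on low counts, which kept 16760 genes. B3GALT2, OXTR and KCNK6 had more RNA in knockout than in senescent control cells. GMNC levels differed little between these 2 groups, and GMNC was low in the knock-ins.

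IMR90 is an established line of human fetal lung fibroblasts. RNA from 10 samples was sequenced, 2 in each of 5 groups, to compare growing with senescent cells and to ask what lowering and restoring METTL3 does to the senescent state. METTL3 is the enzyme that places the methyl mark m6A on RNA. The groups were senescent METTL3 knockout cells with a mutant METTL3 knock-in (mutant knock-in), the same with a wild type METTL3 knock-in (wild type knock-in), senescent METTL3 knockout cells (knockout), senescent cells given the control knockout (senescent control below), and control cells. The protocols describe a retrovirus, either empty or carrying RAS, an oncogene that arrests fibroblasts, then siRNA at day 4, a repeat of the siRNA with a lentivirus on the next day, and harvest 48 hours later. The word knockout is taken from the titles, since the protocols describe siRNA. The protocol text speaks of METTL14, while titles and column names speak of METTL3. The METTL3 mutation is not named in the sources used here. An empty vector appears in the column names of the knockout samples and not in those of senescent control, so an effect of a lentivirus and an effect of METTL3 cannot be told apart between these groups. Nothing in the labels ties a replicate to its own culture, so the spread behind each p-value may be that of technical repeats only.

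Libraries held 16293975 to 23570266 counts. METTL3 averaged 130941 CPM (counts scaled to a common library total) ± 23806 in the mutant knock-in, 58255 ± 184 in the wild type knock-in, 26.05 ± 4.02 in the knockout, 52.3 ± 7.09 in senescent control and 77.05 ± 6.20 in control cells (SD, n = 2 each). METTL3 RNA was thus lower in the knockout than in senescent control but not absent. In the knock-ins METTL3 stood far above its level in control cells, and it took up to 14.2% of the counts of a library. Replicates were least alike in the control group, where the chi-square between the 2 libraries averaged 34.1 per gene; it was 5.08 to 7.56 per gene elsewhere. All 9 fibroblast markers were detected, with summed levels of 5263 to 5944 CPM in the mutant knock-in, 7974 to 8448 in the wild type knock-in, 10133 to 10708 in the knockout, 9820 to 10580 in senescent control and 14846 to 18100 in control cells. Single markers did not all follow the sum. In the mutant knock-in against the knockout 1 rose and 7 fell, and in the wild type knock-in 2 rose and 5 fell (48.4% and 33.3% of all genes called). LUM averaged 53.9 CPM in the mutant and 75.6 in the wild type knock-in, against 31.5 in the knockout. PDGFRA averaged 151.1 CPM in the knockout and 334.1 in senescent control, where the sums were alike. These are bulk libraries, in which fewer cells of a kind and less RNA per cell cannot be told apart.

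The 4 genes do unrelated work. B3GALT2 encodes a galactosyltransferase of the Golgi that adds galactose to N-acetylglucosamine at the ends of sugar chains on proteins and lipids. OXTR is the receptor for oxytocin, a G protein-coupled receptor that raises calcium inside the cell and is best known for contraction of the uterus and for milk ejection. KCNK6, also called TWIK2, belongs to the K2P channels, which let potassium leak across membranes at rest; in mouse macrophages it is known to carry the potassium efflux that precedes inflammasome activation. GMNC, also called GEMC1, is a relative of geminin, the inhibitor of DNA replication licensing, and in mouse and frog it starts the programme by which epithelial cells make many cilia.

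The promoters of the 4 genes are shown because B3GALT2 and OXTR had the same order of groups, KCNK6 shared part of it and GMNC had another. Each is a window of 300 bases around an annotated start site, taken from RefSeq on GRCh38.p14 and written 5′ to 3′ on the strand of the gene; for OXTR it is the most upstream of 3 starts. Capitals mark matches to 6 short motifs searched on both strands: the TATA box TATAAA, the CCAAT box CCAAT, the AP-1 site TGANTCA, the core of the cAMP response element TGACGT, the E-box CACGTG and the TEAD site GGAATG.
B3GALT2 (chr1:193186564-193186863, minus strand): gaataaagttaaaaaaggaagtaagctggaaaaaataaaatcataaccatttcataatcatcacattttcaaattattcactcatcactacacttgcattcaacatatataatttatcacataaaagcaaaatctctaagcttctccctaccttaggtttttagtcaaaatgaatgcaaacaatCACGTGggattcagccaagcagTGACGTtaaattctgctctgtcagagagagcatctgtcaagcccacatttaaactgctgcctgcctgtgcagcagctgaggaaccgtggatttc
OXTR (chr3:8769564-8769863, minus strand): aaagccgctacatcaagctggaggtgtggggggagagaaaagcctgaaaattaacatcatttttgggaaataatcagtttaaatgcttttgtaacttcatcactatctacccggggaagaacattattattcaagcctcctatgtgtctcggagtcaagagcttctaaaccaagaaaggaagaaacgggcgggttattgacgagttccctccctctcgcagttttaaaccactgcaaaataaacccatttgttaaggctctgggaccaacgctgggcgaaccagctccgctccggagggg
KCNK6 (chr19:38319595-38319894, plus strand): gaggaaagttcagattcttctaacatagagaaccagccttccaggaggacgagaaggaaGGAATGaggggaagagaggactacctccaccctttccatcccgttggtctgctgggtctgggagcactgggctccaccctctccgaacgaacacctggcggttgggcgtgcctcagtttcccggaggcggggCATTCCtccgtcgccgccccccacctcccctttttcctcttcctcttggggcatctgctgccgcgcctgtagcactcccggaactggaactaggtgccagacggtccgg
GMNC (chr3:190862645-190862944, minus strand): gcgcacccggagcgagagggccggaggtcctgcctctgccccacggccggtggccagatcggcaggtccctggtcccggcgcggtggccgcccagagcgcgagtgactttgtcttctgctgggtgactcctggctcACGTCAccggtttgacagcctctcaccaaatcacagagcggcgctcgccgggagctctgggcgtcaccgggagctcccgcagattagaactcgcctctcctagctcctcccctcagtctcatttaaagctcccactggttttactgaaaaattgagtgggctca

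B3GALT2 held TGACGT at -44 and CACGTG at -66 from its start site, and its window was 36.7% G and C. GMNC also held TGACGT, on the opposite strand at -114, in a window of 64% G and C. The KCNK6 window (61% G and C) held GGAATG at -191 and, on the opposite strand, at -59. None of the 6 motifs was found in the OXTR window (46.3% G and C), so the pair with the same order of groups had no motif of this set in common. Of 35116 promoters of the same length, 7.98% held TGACGT, 7.26% CACGTG, 14% GGAATG, 11.5% TATAAA, 34.6% CCAAT and 7.71% TGANTCA. The printed matches do not overlap each other. They are matches of letters and not sites shown to be bound.

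B3GALT2 (ENSG00000162630) was the gene with the widest range. It had 1.79 and 2.15 CPM in the mutant knock-in samples, 1.83 and 1.35 in the wild type knock-in, 12.9 and 12.4 in the knockout, 0.494 and 0.959 in senescent control, and 5.30 and 5.96 in control cells. Both knockout samples stood above every other sample, and both senescent control samples stood below every other sample. In order the means were 12.6 CPM ± 0.362 in the knockout, 5.63 ± 0.467 in control, 1.97 ± 0.258 in the mutant knock-in, 1.59 ± 0.338 in the wild type knock-in and 0.726 ± 0.329 in senescent control (SD, n = 2 each). Of these neighbours only the mutant and the wild type knock-in overlapped. The senescent control level rests on 9 and 21 counts, with exact 95% Poisson intervals of 4.12 to 17.1 and 13.0 to 32.1 counts, which cover counting error only. The knockout level rests on 223 and 237 counts.

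The oxytocin receptor gene OXTR (ENSG00000180914) followed the same order of groups at higher counts. It had 15.3 and 18.5 CPM in the mutant knock-in samples, 11.96 and 11.5 in the wild type knock-in, 34.9 and 41.0 in the knockout, 5.98 and 6.48 in senescent control, and 25.7 and 36.9 in control cells. Knockout and control samples formed the upper end and overlapped each other, while the mutant knock-in, the wild type knock-in and senescent control followed below with no overlap between neighbours. The knockout averaged 37.9 CPM ± 4.33, control 31.3 ± 7.87, the mutant knock-in 16.9 ± 2.24, the wild type knock-in 11.7 ± 0.312 and senescent control 6.23 ± 0.358 (SD, n = 2 each). The wide spread in control cells comes from 588 and 823 counts in 2 libraries of like size.

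KCNK6 (ENSG00000099337) was high in the knockout and low in all the other groups, control cells included. It had 7.99 and 5.57 CPM in the mutant knock-in samples, 5.98 and 5.83 in the wild type knock-in, 20.4 and 17.9 in the knockout, 5.04 and 3.97 in senescent control, and 6.39 and 4.75 in control cells. Each knockout sample was above all 8 others. Among the other 4 groups each neighbour in the order overlapped the next: mutant knock-in (6.78 CPM ± 1.71), wild type knock-in (5.90 ± 0.106), control (5.57 ± 1.16) and senescent control (4.51 ± 0.759), with SD and n = 2 each. The knockout mean was 19.2 CPM ± 1.76 (SD, n = 2).

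GMNC (ENSG00000205835) had a different profile, with the groups without a knock-in high and the knock-ins low. It had 3.52 and 3.29 CPM in the mutant knock-in samples, 2.93 and 4.71 in the wild type knock-in, 21.2 and 23.1 in the knockout, 17.3 and 20.6 in senescent control, and 11.8 and 18.8 in control cells. All 4 knock-in samples were below all 6 samples without a knock-in, and the mutant and wild type knock-ins overlapped. Means were 22.1 CPM ± 1.28 in the knockout, 19.0 ± 2.31 in senescent control, 15.3 ± 4.98 in control, 3.82 ± 1.26 in the wild type knock-in and 3.41 ± 0.159 in the mutant knock-in (SD, n = 2 each). Senescent control and control samples overlapped, and the knockout lay just above senescent control.

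**Figure D1:**
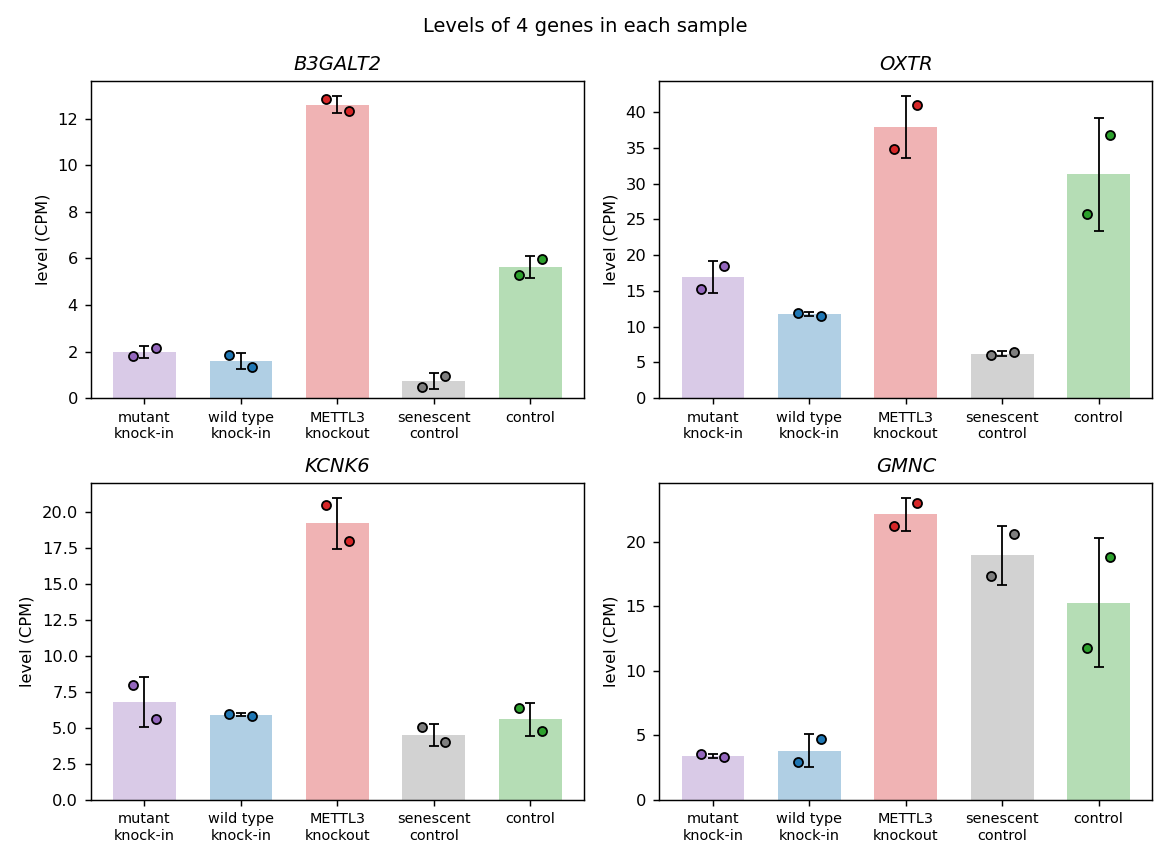
Level of B3GALT2, OXTR, KCNK6 and GMNC in CPM, with 1 panel per gene; points are samples, bars are group means and error bars are SD (n = 2). B3GALT2, OXTR and KCNK6 peak in the knockout at 12.6, 37.9 and 19.2 CPM, and GMNC is lowest in the mutant and wild type knock-ins at 3.41 and 3.82 CPM.

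The comparisons that selected the genes give these values. In knockout against senescent control cells, B3GALT2 was higher by 4.07 on the log2 scale (standard error, SE, 0.25), a 16.8-fold difference and the 22nd largest of 16760. OXTR was higher by 2.60 (SE 0.18) at rank 50, and KCNK6 by 2.10 (SE 0.19) at rank 102. GMNC differed by 0.22 (SE 0.21), at rank 4606. Each SE uses a dispersion estimated over all 10 samples. Over all genes 15.8% were called in this comparison (edgeR's quasi-likelihood test, adjusted p under 0.05), and nothing is read from it for genes chosen on it.

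The knock-ins were set against the knockout in the same way. In wild type knock-in against knockout cells, where 33.3% of all genes were called, B3GALT2 was 8.01-fold lower, the 20th lowest of all. GMNC followed (-2.51, SE 0.25, rank 46), then KCNK6 (-1.70, SE 0.19) and OXTR (-1.69, SE 0.17). In mutant knock-in against knockout cells, where 48.4% were called, GMNC (-2.70, SE 0.26) and B3GALT2 (-2.68, SE 0.22) stood at ranks 35 and 37 from the lowest. KCNK6 (-1.49, SE 0.19) and OXTR (-1.17, SE 0.17) stood at ranks 269 and 557. Both comparisons use the same knockout samples and are not independent of each other. Set against control cells, which the selection did not use, the knockout differed by 1.16 for B3GALT2, 0.28 for OXTR, 1.78 for KCNK6 and 0.54 for GMNC on the log2 scale. OXTR samples of the 2 groups overlapped, and KCNK6 was 3.44-fold higher in the knockout.

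**Figure D2:**
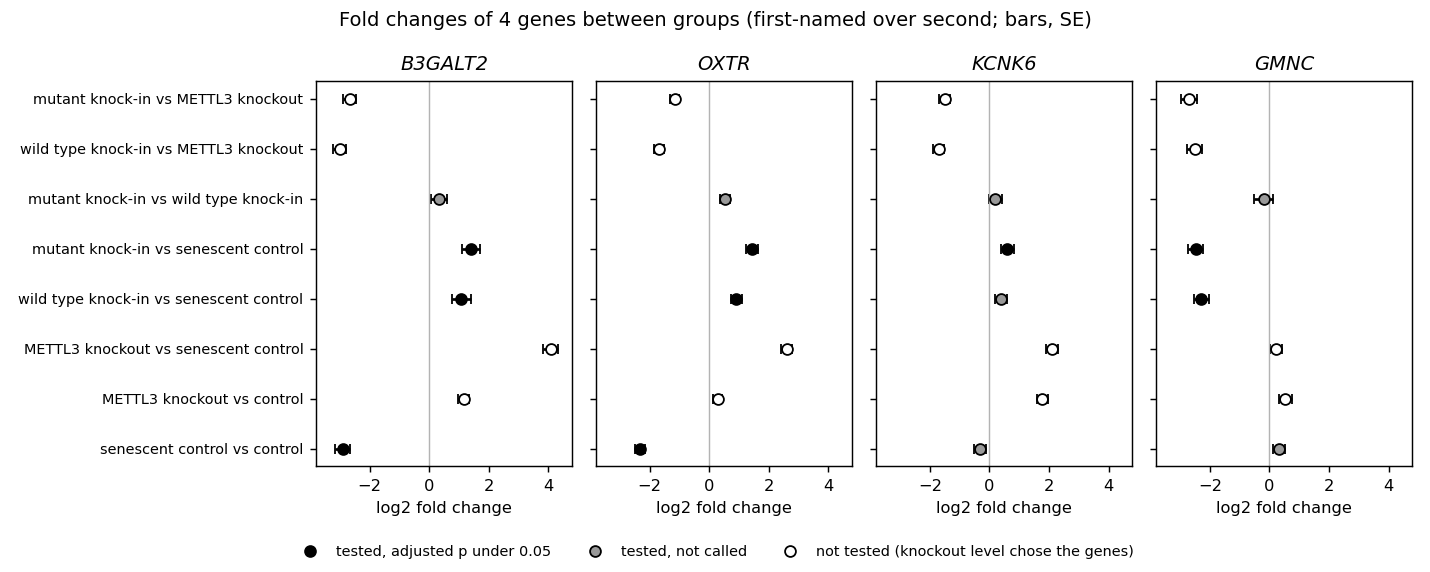
Log2 fold change of each gene in 8 comparisons, first-named group over second, with bars for the SE. Filled points passed edgeR's test at an adjusted p under 0.05, and grey points did not. Open points were not tested because the knockout entered each comparison that chose the genes. Senescent control and knock-in levels entered that choice too, so filled and grey points are not free of it. The open points of B3GALT2 reach 4.07 in knockout against senescent control, and GMNC lies near 0 there at 0.22.

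The other comparisons do not involve the knockout and were tested. Their samples also entered the comparisons that selected the genes, and these comparisons share samples with each other. That selection favours genes low in senescent control or low in the knock-ins. Adjusted p-values for lower levels in senescent control, or in the knock-ins, are therefore not independent of the selection. Senescent control cells were first compared with control cells, to see what RAS-induced senescence does to each gene. B3GALT2 fell by 2.91 on the log2 scale (SE 0.26, edgeR adjusted p = 2.9e-06), a level 7.51-fold lower in senescent control. OXTR fell by 2.32 (SE 0.18, edgeR adjusted p = 1.39e-06). KCNK6 (-0.31, SE 0.21, edgeR adjusted p = 0.242) and GMNC (0.31, SE 0.21, edgeR adjusted p = 0.249) did not pass the test. In this comparison 45.0% of all genes were called, so the count of 2 of the 4 genes is near the background.

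Both unpassed values depended on a control sample. Without control replicate 2, GMNC was called higher in senescent control at 0.69 (edgeR adjusted p = 0.0017, range over its alternatives 0.0017 to 0.951). KCNK6 was called lower at -0.51 in that fit (edgeR adjusted p = 0.0463, range 0.0463 to 0.79), so the count of called genes there became 4.

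The wild type knock-in was set against senescent control, whose cells kept their own METTL3. METTL3 averaged 58255 CPM in the knock-in and 52.3 in senescent control, so it was far above a restored level. The groups also differ in the siRNA, and may differ in the lentivirus, so the parts of these cannot be told apart. The same holds for the mutant knock-in below, with METTL3 at 130941 CPM. GMNC fell by 2.28 (SE 0.25, edgeR adjusted p = 5.58e-05) and was 4.87-fold lower in the knock-in. OXTR was higher by 0.91 (SE 0.19, edgeR adjusted p = 0.00305), and B3GALT2 by 1.07 (SE 0.32, edgeR adjusted p = 0.0177). KCNK6 stood at 0.40 (SE 0.21, edgeR adjusted p = 0.162). Thus 3 of 4 genes were called, against 39.9% of all genes. The selection favours genes low in senescent control or in the knock-ins, so nothing is read from this count. The B3GALT2 call was lost without wild type knock-in replicate 1 (0.86, edgeR adjusted p = 0.117) and without senescent control replicate 1, the library with 9 counts (0.71, edgeR adjusted p = 0.135; range over its alternatives 0.00907 to 0.135).

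In the mutant knock-in against senescent control all 4 genes were called, where 53.3% of all genes were. The selection favours these calls too, so nothing is read from this count. GMNC fell by 2.48 (SE 0.26, edgeR adjusted p = 2.1e-05), and OXTR rose by 1.44 (SE 0.19, edgeR adjusted p = 6.98e-05). B3GALT2 rose by 1.40 (SE 0.31, edgeR adjusted p = 0.00242). KCNK6 was higher by 0.60 (SE 0.21, edgeR adjusted p = 0.0306), a call that was lost with DESeq2 (0.58, adjusted p = 0.0811), without mutant knock-in replicate 1 (0.31, edgeR adjusted p = 0.317) and without senescent control replicate 2 (0.43, edgeR adjusted p = 0.213; range over its alternatives 0.00734 to 0.317). B3GALT2 and OXTR in both knock-ins thus lay between their levels in senescent control and in control cells, while GMNC lay below both.

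The mutant was compared with the wild type knock-in to ask whether the mutation matters for these genes, and 0 of the 4 were called, against 12.5% of all genes. OXTR was the nearest, at 0.53 (SE 0.18, edgeR adjusted p = 0.075, 1.44-fold), with both mutant samples above both wild type samples. It was called in 4 other settings (adjusted p from 0.00486 to 0.0472) and without control replicate 1 or 2 (edgeR adjusted p = 0.00245 and 0.00259), within a range over all its alternatives of 0.00245 to 0.401. B3GALT2 stood at 0.33 (SE 0.28, edgeR adjusted p = 0.469), KCNK6 at 0.20 (SE 0.21, edgeR adjusted p = 0.551) and GMNC at -0.19 (SE 0.31, edgeR adjusted p = 0.732). A p that misses the threshold does not show equal levels, and the groups also differed in METTL3 itself, at 130941 and 58255 CPM, whose part in these values was not tested.

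Genes that overlap the 4 genes or lie beside them in RefSeq were read next, because the sources used here do not say whether strand was used in counting. CDC73, a subunit of the PAF transcription elongation complex, lies on the opposite strand and shares 164 of the 3274 exonic bases of B3GALT2 in GENCODE 29. CDC73 averaged 94.3 CPM in the mutant knock-in, 89.1 in the wild type knock-in, 124.2 in the knockout, 118.8 in senescent control and 98.6 in control cells. It stood at 0.06 in knockout against senescent control (SE 0.13, edgeR adjusted p = 0.814), where B3GALT2 differed by 4.07. It fell by 0.48 in the wild type knock-in and by 0.40 in the mutant knock-in against the knockout (edgeR adjusted p = 0.0168 and 0.0286).

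YIF1B, a protein of transport between the endoplasmic reticulum and the Golgi, overlaps KCNK6 on the opposite strand with no shared exonic base. Its means were 14.9 CPM in the mutant knock-in, 21.0 in the wild type knock-in, 28.5 in the knockout, 18.8 in senescent control and 31.6 in control cells. YIF1B rose by 0.60 in knockout against senescent control (SE 0.11, edgeR adjusted p = 0.00207), where KCNK6 was higher by 2.10. It fell by 0.44 in the wild type and by 0.93 in the mutant knock-in against the knockout (edgeR adjusted p = 0.00657 and 3.13e-05), and in senescent control it was lower than in control cells by a log2 change of -0.75 (edgeR adjusted p = 0.000115). Its high level in control cells has no counterpart in KCNK6. CAV3, a caveolin of muscle that overlaps OXTR on the opposite strand with no shared exonic base, had 7 counts over all 10 samples. RefSeq places no gene over GMNC. Reads of overlapping genes were not separated here, and their part in these levels was not tested.

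Relatives of each gene were counted from lists drawn up from general knowledge, with the 4 genes left out. Beside each count stands the share called over all genes, and nothing is read from a count near it. The sugar-linking relatives of B3GALT2 were 24 beta-3-glycosyltransferases and their helpers, of which 19 were tested. In knockout against senescent control 2 rose and 1 fell, which is close to the 15.8% called over all genes, with a median of 0.04 on the log2 scale against 0.01 over all genes; the fall was not called under RLE or upper-quartile scaling. These 3 calls became 1 without either knockout sample, either senescent control sample or either mutant knock-in sample. In the wild type knock-in against the knockout 4 rose and 4 fell (33.3% of all genes called; median -0.05, all genes 0.02), and in the mutant knock-in 6 rose and 6 fell (48.4% of all genes called; median 0.14, all genes 0.01). Calls in the list thus went both ways in the knock-ins (3 rose and 4 fell in the wild type knock-in under RLE or upper-quartile scaling).

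Of its members, B3GALT5 builds a type of chain carrying Lewis blood group sugars. Against the knockout it went the other way from B3GALT2 in the knock-ins. Against senescent control both genes were higher in the knock-ins, B3GALT5 by 1.93 in the mutant and 1.72 in the wild type (edgeR adjusted p = 8.53e-07 and 4.96e-06). B3GALT5 averaged 21.7 CPM ± 1.79 in the mutant knock-in, 18.8 ± 0.741 in the wild type knock-in and 7.14 ± 0.224 in the knockout (SD, n = 2 each). It rose by 1.60 and 1.39 against the knockout (edgeR adjusted p = 4.45e-06 and 2.53e-05). C1GALT1C1, the chaperone needed to make the common core of mucin-type sugars, fell by 1.54 in the mutant and by 1.27 in the wild type knock-in (edgeR adjusted p = 6.43e-06 and 3.88e-05), and B3GLCT, which adds glucose to thrombospondin repeats, fell by 0.38 and by 0.50 there (edgeR adjusted p = 0.00757 and 0.00205). B3GLCT was also higher in knockout than in senescent control cells, by 0.69 (SE 0.10, edgeR adjusted p = 0.000504), far less than B3GALT2. The other named relatives were near the limit of detection. B3GNT8, which extends chains of N-acetyllactosamine, had 114 counts over all samples and rose by 1.65 in the mutant knock-in (edgeR adjusted p = 0.0396). The ganglioside enzyme B3GALT4 had 85 counts and rose by 1.62 in the wild type knock-in (edgeR adjusted p = 0.0228).

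For OXTR the ligand came first. OXT, the gene for oxytocin, had 0 counts in each of the 10 samples, which allows up to 3 counts or 0.131 to 0.190 CPM per sample; AVP, the gene for the related hormone vasopressin, and its receptor genes AVPR1A, AVPR1B and AVPR2 also had 0 counts. So the receptor was measured in cells in which no RNA of its ligand was detected at this depth. Of 26 listed genes of oxytocin and vasopressin signalling 19 were tested. In knockout against senescent control 2 rose and 3 fell (15.8% of all genes called; median 0.01, all genes 0.01). In the wild type knock-in against the knockout 3 rose and 6 fell (33.3% of all genes called; median -0.11, all genes 0.02). In the mutant knock-in 3 rose and 7 fell (median -0.23, all genes 0.01), near the 48.4% of all genes called. The 5 calls in knockout against senescent control became 2 or 3 without a sample of either group and 8 without either control sample. The 9 calls in wild type knock-in against knockout became 4 or 5 without a sample of either group.

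Downstream of the receptor, ITPR1, a channel that releases calcium from the endoplasmic reticulum, stood lowest in the knockout, where OXTR stood highest. It averaged 17.2 CPM ± 2.51 in the mutant knock-in, 10.4 ± 0.0617 in the wild type knock-in, 4.30 ± 0.618 in the knockout, 8.66 ± 1.31 in senescent control and 8.65 ± 0.579 in control cells (SD, n = 2 each). ITPR1 fell by 1.02 in knockout against senescent control (SE 0.17, edgeR adjusted p = 0.00164), and rose by 2.00 in the mutant and 1.27 in the wild type knock-in against the knockout (edgeR adjusted p = 2.51e-06 and 0.000166). Away from the knockout it did not run opposite to OXTR: it rose by 0.98 in the mutant knock-in against senescent control (edgeR adjusted p = 0.000177), as OXTR did, and stood at 0.01 in senescent control against control cells (edgeR adjusted p = 0.98), where OXTR fell. ITPR2, a channel of the same kind, rose by 0.78 and 0.52 in these knock-ins (edgeR adjusted p = 0.00148 and 0.0229). ITPR3 went down, at -0.28 and -0.39 (edgeR adjusted p = 0.0567 and 0.0176). Among genes that dampen such receptors, RGS2, which shortens Gq signalling, rose by 1.07 and 0.62 in these knock-ins (edgeR adjusted p = 0.000397 and 0.0199). GRK2 and GRK6 instead fell by 0.41 and 0.66 in the mutant knock-in (edgeR adjusted p = 0.0198 and 0.000502). Neither was called in the wild type knock-in. ARRB1, a beta-arrestin that uncouples receptors, fell by 0.94 in knockout against senescent control (SE 0.14, edgeR adjusted p = 0.000746). The list had 2 rises there, PLCB4 and PRKCA, against 3 falls, and both genes ran with OXTR in the knock-ins. PLCB4 rose by 0.56 (edgeR adjusted p = 0.0392) and fell by 0.76 in the mutant and by 0.69 in the wild type knock-in. PRKCA rose by 0.39 (edgeR adjusted p = 0.00786) and fell there by 0.66 and 0.64. In senescent control against control cells PRKCA fell by 1.23 as OXTR did, while PLCB4 rose by 0.69.

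Of 14 other K2P channel genes listed, 2 passed the filter on low counts. KCNK1, also called TWIK1, passed with 105 counts in all and was called in none of the comparisons with the knockout. KCNK2, also called TREK1, a channel opened by stretch, averaged 4.08 CPM ± 0.218 in the mutant knock-in, 3.61 ± 0.159 in the wild type knock-in, 12.2 ± 1.88 in the knockout, 6.36 ± 0.235 in senescent control and 24.4 ± 1.06 in control cells (SD, n = 2 each). Like KCNK6 it was higher in the knockout than in senescent control and the knock-ins: it rose by 0.93 against senescent control (SE 0.14, edgeR adjusted p = 0.000668), and in the mutant and wild type knock-ins it fell by 1.57 and by 1.75 (edgeR adjusted p = 7.43e-06 and 6.75e-06). Unlike KCNK6 it was highest in control cells, and it fell by 1.94 in senescent control against them (edgeR adjusted p = 2.55e-07).

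GMNC was set against its partners in the cell cycle and in the making of cilia. MCIDAS, the geminin relative that acts after GMNC in multiciliated cells, had 0 counts in all 10 samples. Geminin itself, GMNN, averaged 5.89 CPM ± 0.902 in the mutant knock-in, 5.56 ± 0.677 in the wild type knock-in, 8.58 ± 0.0340 in the knockout, 5.98 ± 0.0683 in senescent control and 20.1 ± 1.49 in control cells (SD, n = 2 each). It rose by 0.52 in knockout against senescent control (SE 0.15, edgeR adjusted p = 0.033), and fell by 0.54 in the mutant and by 0.63 in the wild type knock-in against the knockout (edgeR adjusted p = 0.0111 and 0.00689). In senescent control GMNN fell by 1.75 against control cells (edgeR adjusted p = 1.01e-06), where GMNC stood at 0.31.

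Of 21 listed genes of the geminin family and of multiciliation 14 were tested. In knockout against senescent control 3 rose and 1 fell (15.8% of all genes called; median 0.26, all genes 0.01), and in the wild type knock-in against the knockout 2 rose and 5 fell (33.3% of all genes called; median -0.16, all genes 0.02). In the mutant knock-in 1 rose and 4 fell (median 0.05, all genes 0.01), a smaller share than the 48.4% of all genes called. CDT1, the licensing factor that geminin blocks, fell by 1.03 in the mutant and by 1.15 in the wild type knock-in (edgeR adjusted p = 0.00551 and 0.00428). TFDP1, the partner of the E2F factors that switch on multiciliation genes in frog, fell by 0.96 and by 0.58 there (edgeR adjusted p = 9.26e-06 and 0.000596). PLK4, the kinase that starts new centrioles, rose by 0.91 in knockout against senescent control (edgeR adjusted p = 0.0168). It fell by 1.05 in the wild type knock-in against the knockout (edgeR adjusted p = 0.00431). In the mutant knock-in PLK4 stood at -0.39 and was not called (edgeR adjusted p = 0.161). RFX3, a transcription factor of cilium genes, went the other way from GMNC in the knock-ins against the knockout. It rose by 1.92 in the mutant and 1.07 in the wild type knock-in (edgeR adjusted p = 2.32e-06 and 0.000385). In knockout against senescent control RFX3 fell by 0.72 (edgeR adjusted p = 0.0118), where GMNC differed little, at 0.22. The 4 calls of this list in knockout against senescent control became 0 without knockout replicate 1 and 1 without knockout replicate 2 or either senescent control sample.

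**Figure D3:**
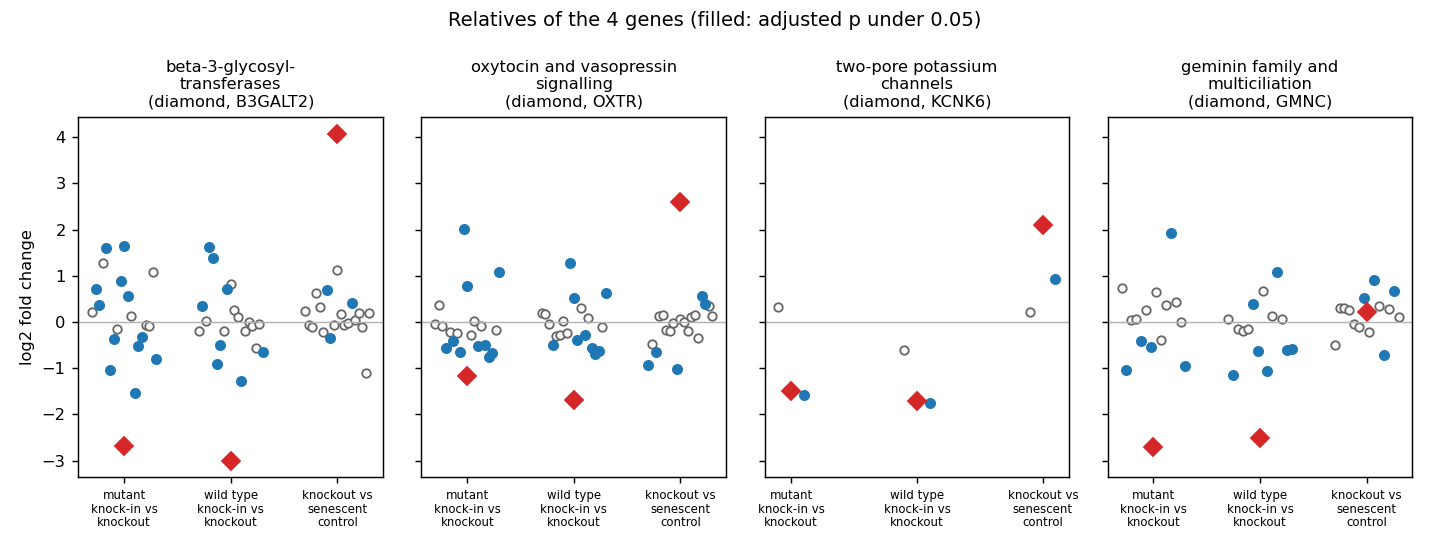
Log2 fold changes of the relatives of each gene in mutant knock-in against knockout, wild type knock-in against knockout, and knockout against senescent control; filled circles passed edgeR's test at an adjusted p under 0.05, open circles did not, and diamonds are the 4 genes themselves, not tested. The relatives spread on both sides of 0 in the first 2 and the last list, where B3GALT2 and OXTR lie at 4.07 and 2.60 in knockout against senescent control, and KCNK2 is the filled circle of the K2P panel.

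Markers of other cells were read beside these levels. Of 8 markers of ciliated epithelium, the cells in which GMNC is best known, DNAI1 and SNTN had 0 counts in all samples and FOXJ1 had 4. Their summed level was 77.1 CPM in both mutant knock-in samples, 72.1 to 74.8 in the wild type knock-in, 74.6 to 76.1 in the knockout, 87.7 to 92.4 in senescent control and 31.4 to 47.0 in control cells. Nearly all of it was DNAH5, a dynein of cilia, and it was not low in the knock-ins where GMNC was low. Of 6 epithelial markers, 2 had 0 counts, and the sum was 4.24 to 4.41 CPM in the mutant knock-in, 4.76 to 6.16 in the wild type knock-in, 13.2 to 13.6 in the knockout, 5.87 to 6.71 in senescent control and 23.6 to 26.1 in control cells. All 6 smooth muscle markers had counts, with a sum of 222.7 to 231.2 CPM in the mutant knock-in, 240.0 to 253.3 in the wild type knock-in, 458.1 to 496.2 in the knockout, 357.5 to 403.7 in senescent control and 445.8 to 519.7 in control cells. Both sums were higher in the knockout than in senescent control and the knock-ins, as B3GALT2, OXTR and KCNK6 were, through some of their genes. In the epithelial list that gene was KRT19, at 9.92 CPM in the knockout and 2.85 in senescent control (edgeR adjusted p = 0.000195), while CLDN4 (2.47 and 2.37 CPM) and EPCAM (0.602 and 0.827 CPM) were not called and KRT5 and SFTPC were at 0. In the smooth muscle list ACTG2 carried most of it, at 290.1 CPM in the knockout and 189.3 in senescent control (edgeR adjusted p = 0.00646). LMOD1 and SYNPO2 also rose (edgeR adjusted p = 3.61e-05 and 0.00501), and SMTN stood at 159.3 and 179.0 CPM (edgeR adjusted p = 0.278). Against the knockout, 3 genes of this list fell in each knock-in, ACTG2 and LMOD1 among them. SYNPO2 did not fall: its mean was 14.5 CPM with the mutant, a rise of 0.48 (edgeR adjusted p = 0.0258). Wild type knock-in and knockout cells both averaged 10.4 CPM of SYNPO2. MYH11 averaged 1.04 CPM with the mutant and 0.416 in the knockout (edgeR adjusted p = 0.0812). The part of these markers in the levels of the 4 genes was not tested.

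Leukocyte markers, 2 of 6 at 0 counts, summed to 170.1 to 177.3 CPM in the mutant knock-in, 157.1 to 163.4 in the wild type knock-in, 78.2 to 79.5 in the knockout, 74.6 to 76.9 in senescent control and 66.8 to 74.0 in control cells, opposite to GMNC across the knock-ins. Neuron markers, 1 of 6 at 0 counts, summed to 27.0 to 27.7 CPM in the mutant knock-in, 18.4 to 20.0 in the wild type knock-in, 37.5 to 41.0 in the knockout, 28.5 to 32.5 in senescent control and 14.5 to 22.7 in control cells. Endothelial markers, 5 of 6 of which were in the table, ranged from 18.5 to 29.3 CPM over all samples. Their part in the levels of the 4 genes was not tested either.

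The profiles of the 4 genes over the 10 samples were compared by Pearson's r of log2 CPM, as a description of points that share libraries and groups. B3GALT2, OXTR and KCNK6 all stood high in the knockout and low in senescent control, levels that entered the selection. The r values among them therefore partly reflect how the genes were chosen. B3GALT2 and OXTR had r = 0.959, B3GALT2 and KCNK6 0.759, and OXTR and KCNK6 0.647. GMNC had lower values with each, at 0.375 with B3GALT2, 0.278 with KCNK6 and 0.239 with OXTR. The 4 genes thus hold 3 kinds of profile: high in knockout and control cells (B3GALT2 and OXTR), high in the knockout alone among the groups (KCNK6), and low in the knock-ins (GMNC).

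The genes most like each of them were then named from 11820 genes with at least 5 CPM in a group. They were picked by r, so a like order of groups follows from the choice and is only described. For B3GALT2 they were COL8A1, a short-chain collagen, EHHADH, an enzyme of peroxisomal fat oxidation, B3GLCT, ADAMTSL1, a secreted matrix protein, and CCN2, the connective tissue growth factor, with r of 0.965 to 0.944. CCN2 averaged 381.1 CPM in the mutant knock-in, 384.4 in the wild type knock-in, 645.0 in the knockout, 274.3 in senescent control and 612.2 in control cells. For OXTR they were BRIP1, a helicase of DNA repair, B3GLCT, EHHADH, ZFPM2, a cofactor of GATA factors, and GAL3ST4, a sulfotransferase, with r of 0.966 to 0.955. B3GLCT and EHHADH stand in both lists, and all 8 genes were highest in knockout and control cells and lowest in senescent control. Their range was narrower than that of B3GALT2: COL8A1 had 133.2 CPM in the knockout and 71.4 in senescent control.

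For KCNK6 the nearest were TRAK1, an adaptor for transport of mitochondria, NLRP10, a protein of the family of innate sensors, FGF1, a fibroblast growth factor, CRYBB2P1, a crystallin pseudogene whose reads may be shared with CRYBB2, and SLC16A4, of the monocarboxylate transporter family, with r of 0.940 to 0.890. FGF1 averaged 20.8 CPM in the mutant knock-in, 17.4 in the wild type knock-in, 59.7 in the knockout, 17.0 in senescent control and 26.4 in control cells, a profile with a single high group. For GMNC they included RWDD4, SSR3, a protein of the translocon of the endoplasmic reticulum, RMDN1 and ATL3, which shapes tubules of the endoplasmic reticulum, with r of 0.992 to 0.988. SSR3 averaged 406.6 CPM in the mutant knock-in, 469.0 in the wild type knock-in, 1001 in the knockout, 996.3 in senescent control and 859.8 in control cells. Like GMNC, it was low in both knock-ins. CPM is not divided by gene length, so levels of different genes are not compared with each other here.

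**Figure D4:**
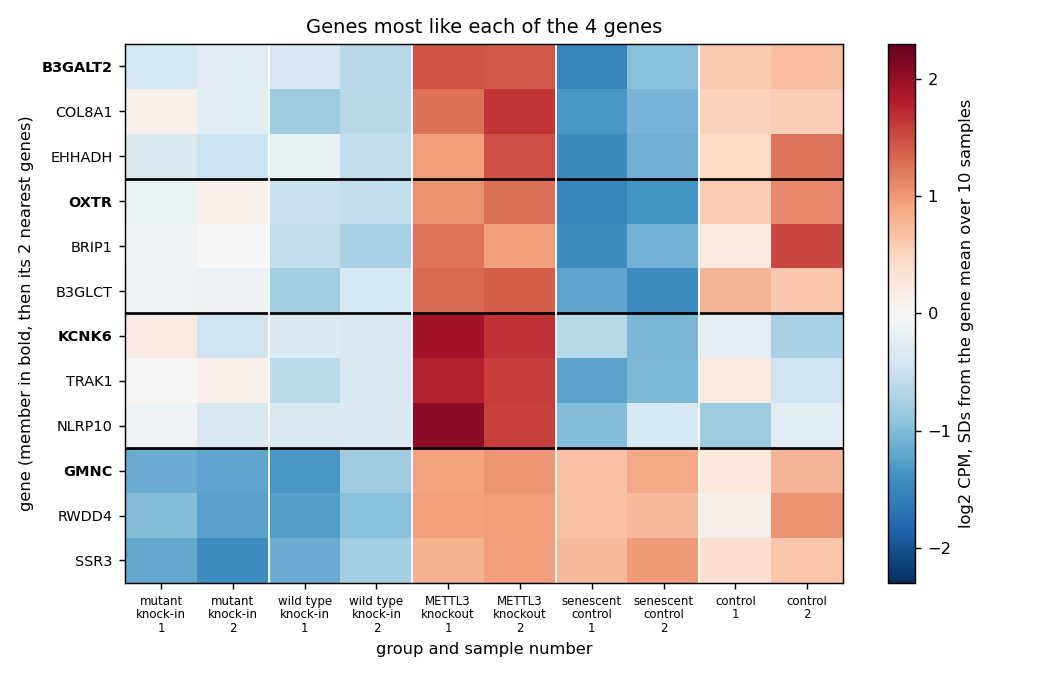
Log2 CPM of each of the 4 genes (bold) and its 2 nearest genes, as SDs from the mean of the gene over 10 samples (red high, blue low); columns are samples by group. The B3GALT2 and OXTR blocks are red in knockout and control and bluest in senescent control, the KCNK6 block is red in the knockout, and the GMNC block is blue in all 4 knock-in samples.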

How the data were processed

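Per the labels' protocols, total RNA was digested with DNase I and made into KAPA RNA HyperPrep libraries. The tools were RSEM 1.2.12 and Bowtie2 on hg19, per the submitters' processing notes. What the authors deposited is a table of whole-number counts for Ensembl genes, not normalized, which may be rounded estimates since RSEM estimates counts. The sources used here state neither the annotation nor the strand setting, the handling of multi-mapped reads or any filter. Of 57736 IDs, 51959 had a symbol. Groups were taken from the titles. Genes were kept by filterByExpr (minimum count 10), libraries scaled by TMM, and a model with 1 coefficient per group fitted to the 10 samples, leaving 5 residual degrees of freedom (edgeR 4.0.16, R 4.3.3). Groups were compared by the robust quasi-likelihood test (two-sided), and p-values were adjusted by Benjamini and Hochberg's method over 16760 genes. "Rose" and "fell" mean an adjusted p under 0.05. The SE is the log2 fold change divided by the root of F. CPM used TMM-scaled totals. The steps were tested on simulated data.

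The 4 genes, the lists and the naming rule were chosen with earlier results of these data known. Named were the 4 genes, METTL3, OXT, GMNN, MCIDAS, and overlapping or adjacent genes. So were up to 4 genes per list with the largest change among those called against the knockout or in it against senescent control. The 5 genes with the highest r per gene (log2 CPM, prior count 2) were also chosen. AVP, its receptors, KCNK1, PLCB4, PRKCA, ITPR3, GRK2, GRK6, B3GLCT as a relative and the markers of other cells were added after their values were seen. Of the 5 genes nearest to GMNC, 4 are named and 1 is not reported here. Coordinates belong to the RefSeq promoters on GRCh38.p14 alone, since the counts were made on hg19; gene overlaps come from RefSeq and GENCODE 29. Alternatives were RLE and upper-quartile scaling, METTL3 left out, no filter, DESeq2 1.42.0, the replicate block, only the 2 groups compared, and each sample left out.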

Additional observations from a re-analysis of the deposited data

How the results depend on the processing

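All 4 genes kept the direction of every value called in the comparisons under each alternative run. In mutant against wild type knock-in, OXTR was called with no filter (0.49), with only the 2 groups (0.54), with upper-quartile scaling (0.58) and with the replicate block (0.53), which made the count 1 of 4, and was 0.4004 to 0.666 with a sample left out (0 to 1 of 4 called). Uncalled signs turned for GMNC (0.24 without wild type knock-in replicate 2, range -0.466 to 0.244) and KCNK6 (-0.07 without mutant knock-in replicate 1, range -0.0726 to 0.452).

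With DESeq2 the KCNK6 call in mutant knock-in against senescent control was lost (0.58), and its range with a sample left out was 0.313 to 0.784. B3GALT2 in wild type knock-in against senescent control ranged from 0.707 to 1.66. In senescent control against control the ranges were 0.0155 to 0.691 for GMNC and -0.513 to -0.0848 for KCNK6, with 2 to 4 of 4 genes called.

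Fitting only the 2 groups called 5533 genes for knockout against senescent control (2646 with all groups), 4083 for mutant against wild type knock-in (2103) and 5001 for senescent control against control (7549). It called 5 relatives of B3GALT2 and 10 of OXTR in knockout against senescent control (3 and 5 with all groups). With a sample left out, genes called ranged from 1229 (without senescent control replicate 1) to 4874 (without control replicate 2) for knockout against senescent control, and from 120 (without mutant knock-in replicate 2) to 4965 (without control replicate 1) for mutant against wild type knock-in. They ranged from 3471 (without knockout replicate 1) to 7648 for wild type knock-in against knockout and from 4427 (without senescent control replicate 2) to 8521 for wild type knock-in against senescent control. The lists ranged from 1 to 4 (B3GALT2), 2 to 8 (OXTR) and 0 to 4 (GMNC) calls in knockout against senescent control, and from 4 to 12 for OXTR in wild type knock-in against knockout. A group left with 1 sample is assumed to vary like the others.

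Replicate numbers did not pair the samples: deviations of same-numbered samples correlated at -0.120 to 0.0608, and the labels do not tie a number to a batch. The replicate block changed no call of the 4 genes but that of OXTR. Depth limits B3GALT2 most, at 9 and 21 counts in senescent control. The causes of these changes were not tested, except that smaller fits hold fewer samples.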
